A study of Mus musculus with 4 samples.

Results

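Late erythroid maturation genes are described here through 9 members, chosen by symbol: Ube2l6, Trim10, Hemgn, Acp5, Hebp1, Tspo2, Fam46c, Bcl2l1 and Car1. All 9 appear among the 2982 genes that the authors' tables list in at least 1 of 6 pairwise comparisons, out of 12931 genes tested. RNA-seq was made from G1E, a mouse erythroblast line derived from cells without GATA-1, the zinc finger factor that red cell maturation depends on. The 4 groups carried GATA-1 2RA, GATA-1 V205M, GATA-1 WT or no added form (G1E control), and all 4, the control included, have the treatment label β-estrodiol induction. V205M is known to weaken binding to the cofactor FOG-1, whereas the labels give no account of what 2RA alters. Each group is 1 sample of 1 cell line, so no difference below has a replicate check and none was tested across samples.

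In the last divisions before a red cell loses its nucleus, GATA-1 is known to switch on globins, heme enzymes and membrane proteins together with a smaller set of genes for protein turnover, survival, gas exchange and heme handling. The 9 genes were named as candidates for that smaller set and act in unrelated processes. Not all rose with GATA-1 WT here: Car1 was not listed as higher than in G1E control, and Tspo2 has no level in GATA-1 WT. Ube2l6 and Trim10 belong to the ubiquitin and ISG15 systems, Hemgn encodes a nuclear protein of blood cells, Hebp1 and Tspo2 bind heme, porphyrins or cholesterol, Fam46c extends poly(A) tails, Bcl2l1 blocks apoptosis, Car1 hydrates carbon dioxide and Acp5 is an acid phosphatase.

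Levels are the authors' mean read counts per group divided by a size factor, called scaled reads. They are not divided by transcript length, so a level is compared between groups and not between genes. A gene is called listed in a comparison when the authors' table of that pair holds it, their limits being 0.01 for the adjusted p and 2-fold for the change. A level in a pair that does not list a gene was read from the tables of other pairs. Recovered whole reads over the listed genes came to 1218762 in GATA-1 2RA, 1147539 and 977544 for GATA-1 V205M, which has 2 columns of counts, 2178397 in GATA-1 WT, and 1015015 and 276064 for G1E control, which has 2 as well. The labels name 1 sample for each of the groups with 2 count columns, and no source used here says whether the columns are cultures or runs. They were not treated as replicates; across the members their log2 ratio ran between -0.38 and 0.36 in GATA-1 V205M and between -0.30 and 0.44 in G1E control. Each 95% interval on a fold comes from pooled reads and covers counting error only. No column gave a count below 1, and the recovery for groups with 2 columns did not allow a lower one. Whether genes without reads were left out or given a count of 1 is not known. Levels of a few reads may thus sit at a floor, which leaves their folds and intervals uncertain. In bulk RNA, fewer cells of a kind and less RNA per cell cannot be told apart.

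Erythroid identity was read from 4 genes. Hbb-b1 encodes an adult beta-globin and had 2342 scaled reads in GATA-1 2RA, 91.6 in GATA-1 V205M, 39108 in GATA-1 WT and 238 in G1E control. Alas2, the first enzyme of erythroid heme synthesis, stood at 2.14, 34.7, 1154 and 6.54 scaled reads in GATA-1 2RA, GATA-1 V205M, GATA-1 WT and G1E control. Slc4a1, the band 3 anion exchanger, had 1.43, 0.931, 527 and 5.8 scaled reads in GATA-1 2RA, GATA-1 V205M, GATA-1 WT and G1E control. The 3 products of a mature erythroblast were thus highest in GATA-1 WT, while Klf1, an erythroid transcription factor, was measured in every group (381, 382, 1418 and 462 scaled reads in the same order). Gata1 RNA itself stood at 1421 scaled reads in GATA-1 2RA, 613 in GATA-1 V205M, 2652 in GATA-1 WT and 153 in G1E control, where the part of the gene that gave these reads is not known. The 3 forms thus also differed in Gata1 level, and its part in the member differences was not tested.

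Because GATA-1 binds a short DNA word, the stretches upstream of the members' start sites were read for it. RefSeq promoter windows on GRCm38.p6 were found for 8 of the 9 members, 12 windows in all, and Car1 was not matched. In the 250 bases before each start, 4 members had a GATA word, 1 window each. The word was searched on both strands as AGATAA, with the variant AGATAG for a last G, the variant TGATAA for a first T and the variant TGATAG for both. Such a word is common. By window it was in 4 of the 12, beside 26.5% of all 32851 RefSeq windows of that length. By gene, counting any start, it was in 4 of 8 members, beside 29.7% of 27025 genes. The second word searched, CCACACCC or CCGCACCC on either strand, is a CACC box of the kind Klf1 binds and occurs in 4.7% of windows. The 4 windows with GATA words are shown because the member levels below are compared between forms of the factor that reads this word; capitals mark matches to either word, and no 2 matches overlap. Each runs 5′ to 3′ on the gene's strand and ends at the base before a RefSeq start: the distal Acp5 start (chr9:22135747-22135996, minus strand), Hemgn (chr4:46404184-46404283, minus), Bcl2l1 (chr2:152828490-152828589, minus) and Trim10 (chr17:36869374-36869573, plus).
Acp5: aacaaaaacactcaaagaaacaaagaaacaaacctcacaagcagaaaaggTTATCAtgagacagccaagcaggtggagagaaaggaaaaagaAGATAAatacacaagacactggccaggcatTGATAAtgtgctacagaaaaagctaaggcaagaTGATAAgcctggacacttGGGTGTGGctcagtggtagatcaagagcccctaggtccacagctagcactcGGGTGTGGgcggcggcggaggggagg
Hemgn: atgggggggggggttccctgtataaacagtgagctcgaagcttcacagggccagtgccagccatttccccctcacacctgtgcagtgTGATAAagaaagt
Bcl2l1: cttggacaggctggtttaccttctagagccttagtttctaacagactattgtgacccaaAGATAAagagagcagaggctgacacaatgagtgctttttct
Trim10: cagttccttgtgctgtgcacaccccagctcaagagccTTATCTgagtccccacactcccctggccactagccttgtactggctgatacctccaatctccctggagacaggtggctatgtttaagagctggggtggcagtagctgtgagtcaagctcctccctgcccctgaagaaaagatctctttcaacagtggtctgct

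The Acp5 window held 4 GATA words, beginning 200, 158, 128 and 95 bases before the start, and 2 CACC words at 77 and 26 bases. Of the 32851 windows, 69, or 0.21%, held 4 or more GATA words. That limit equals the Acp5 count, the highest among the 12 member windows, so the share carries no test. The windows at the other Acp5 starts held neither word. Hemgn had TGATAA 13 bases before its start, Bcl2l1 had AGATAA at 41 bases and Trim10 had TTATCT, the reverse complement of AGATAA, at 163 bases. The Hemgn window lies inside the gene's span, which reaches 46413506 on the minus strand. The Bcl2l1 match is at its most internal start. Its windows further upstream, chr2:152830718-152830817 and chr2:152831729-152831828, hold no GATA word. The Hebp1 window held a CACC word at 79 bases and no GATA word. No binding data are among the files, so a match says only that the letters are present.

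**Figure D1:**
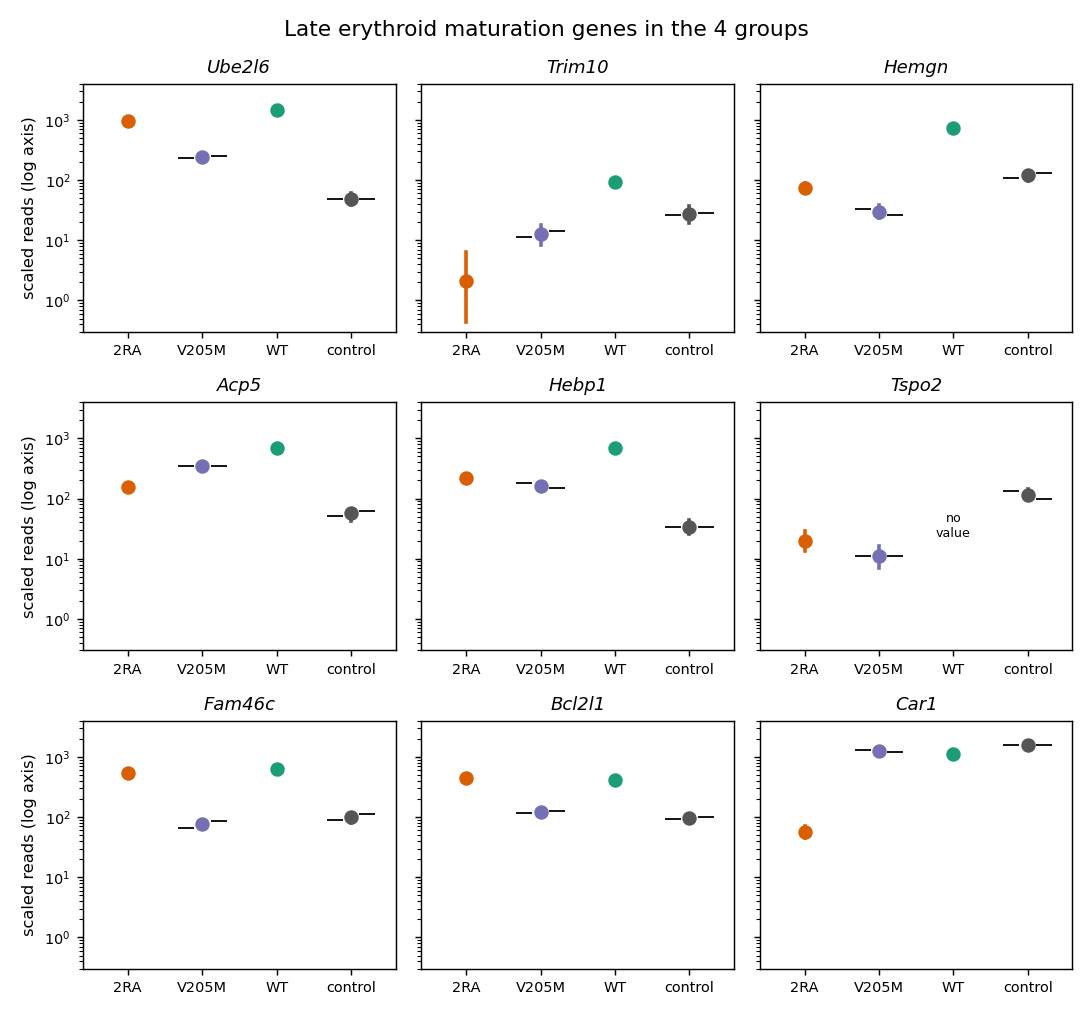
Level of each member in GATA-1 2RA, GATA-1 V205M, GATA-1 WT and G1E control, in scaled reads on a log axis; points are the authors' group means, vertical bars the 95% counting interval and short horizontal lines the 2 count columns where a group has them. Hemgn, Trim10, Hebp1, Acp5 and Ube2l6 are highest in GATA-1 WT, Fam46c and Bcl2l1 are high in both GATA-1 2RA and GATA-1 WT, and Car1 is lowest in GATA-1 2RA.

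Against G1E control, GATA-1 WT had 7 members listed as higher and 0 as lower, beside 8.17% and 4.86% of all tested genes listed as higher and as lower. GATA-1 2RA had 5 higher and 3 lower, where the share of all genes was 4.86% higher and 2.61% lower. GATA-1 V205M had 3 higher and 2 lower, with 4.83% of all genes listed as higher and 3.32% as lower. These 3 comparisons share the control sample. The median log2 change of the listed members over G1E control was 1.79 in GATA-1 2RA, 2.23 in GATA-1 V205M and 2.63 in GATA-1 WT. Over all listed genes it was 1.23 for GATA-1 2RA, 1.11 for GATA-1 V205M and 1.23 for GATA-1 WT. The member medians rest on different genes, so they do not rank the groups. Left out as unlisted were Hemgn (-0.66) in GATA-1 2RA and Car1 (-0.51) in GATA-1 WT, where Tspo2 has no level. In GATA-1 V205M, Trim10 (-1.06), Fam46c (-0.43), Car1 (-0.30) and Bcl2l1 (0.32) were left out. The members were named as erythroid genes with results of these data known, so their shares carry no test. Where a biological coefficient of variation (BCV) of 0.4 between cultures was assumed, edgeR's exact test called 3 members as higher in GATA-1 WT (Ube2l6, Hebp1 and Acp5), 1 higher and 1 lower in GATA-1 2RA (Ube2l6 and Car1) and none in GATA-1 V205M.

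Set against GATA-1 WT, no member was listed as higher in either mutant. GATA-1 2RA had 5 members listed as lower and 0 as higher, beside 4.04% and 3.33% of all genes. GATA-1 V205M had 7 lower and 0 higher, beside 5.65% and 3.7% of all genes. The median log2 change of listed members was -3.29 for GATA-1 2RA and -2.62 for GATA-1 V205M, beside -1.07 and -1.16 over all listed genes. The member medians rest on different genes, so they do not rank the mutants. Left out as unlisted were Ube2l6 (-0.63), Fam46c (-0.17) and Bcl2l1 (0.09) in GATA-1 2RA, and Car1 (0.21) in GATA-1 V205M. Between the mutants, GATA-1 2RA had 4 members higher and 2 lower than GATA-1 V205M, beside 3.6% and 2.62% of all genes, with a median of 1.58 beside 1.18. At an assumed BCV of 0.4, 2 members were called as lower in GATA-1 2RA than in GATA-1 WT (Trim10 and Car1) and 1 in GATA-1 V205M (Hemgn), while between the mutants Car1 alone was called. In the authors' tables the members split by mutant: Trim10, Hemgn, Hebp1 and Acp5 were listed as lower in both, Car1 in GATA-1 2RA, and Ube2l6, Fam46c and Bcl2l1 in GATA-1 V205M. For those last 4 genes the direct difference between the mutants was itself listed.

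**Figure D2:**
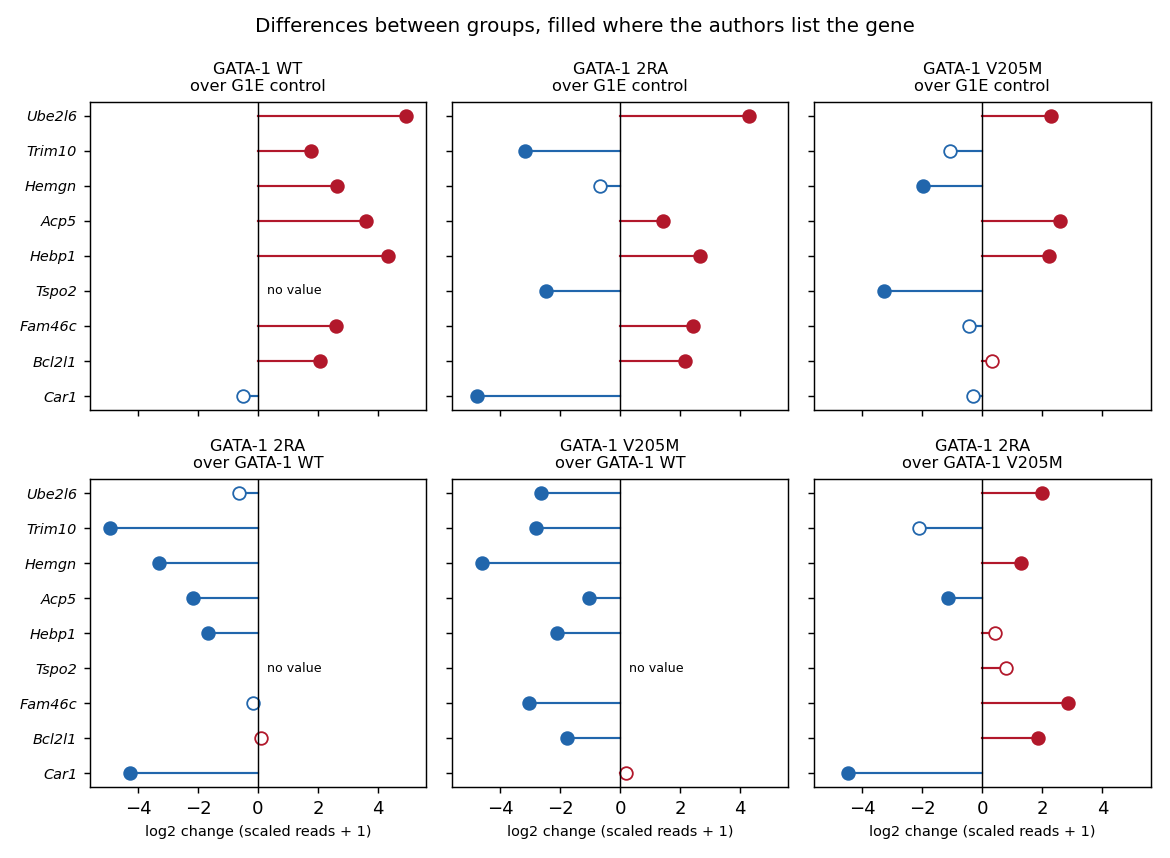
Log2 change of each member, in scaled reads plus 1, for the 6 pairs of groups; filled points are listed in the authors' table of that pair and open points are computed from levels in other tables. Every listed change against GATA-1 WT lies left of 0, while the comparisons with G1E control and between the mutants go both ways.

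Ube2l6 encodes the E2 enzyme that passes the ubiquitin-like protein ISG15, and also ubiquitin, to its targets; it lies at chr2:84798828-84810335 on the plus strand (GRCm38, GENCODE M21). It stood at 957 scaled reads in GATA-1 2RA, 240 in GATA-1 V205M (232 and 247 in its 2 columns), 1484 in GATA-1 WT and 48.2 in G1E control (48.8 and 47.6). All 3 forms were above the control, in the order GATA-1 WT, GATA-1 2RA, GATA-1 V205M. The fold over G1E control was 30.8 (24.3 to 39.1) in GATA-1 WT, 19.8 (15.6 to 25.3) in GATA-1 2RA and 4.97 (3.86 to 6.38) in GATA-1 V205M. GATA-1 V205M was 6.19-fold (5.64 to 6.84) below GATA-1 WT and listed, and GATA-1 2RA was 1.55-fold (1.45 to 1.66) below GATA-1 WT and not listed. GATA-1 2RA was 3.99-fold (3.61 to 4.44) above GATA-1 V205M.

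Uba7, the E1 enzyme that activates ISG15 ahead of Ube2l6, ran through the groups in the same order, at 313 scaled reads in GATA-1 2RA, 122 in GATA-1 V205M, 487 in GATA-1 WT and 101 in G1E control. It was listed as 4.81-fold (4.26 to 6.12) higher in GATA-1 WT and 3.09-fold (2.7 to 3.97) higher in GATA-1 2RA than in G1E control, and GATA-1 V205M, at 1.2-fold (1.04 to 1.57), was not listed. Usp18, the protease that takes ISG15 off its targets, went the other way. It had 24.3 scaled reads in GATA-1 2RA, 44.1 in GATA-1 V205M, 1.89 in GATA-1 WT, which is 3 reads, and 24.8 in G1E control. GATA-1 2RA was 12.9-fold (4.04 to 65.4) and GATA-1 V205M 23.3-fold (7.72 to 115) above GATA-1 WT. Both steps of ISG15 attachment measured here were thus higher than in the control, and the removal enzyme lower, when GATA-1 WT was present. Ube2l6 is also known as an interferon-induced gene. Of 21 interferon response genes examined, Usp18 and Ifit2 were listed in a table, beside 2982 of 12931 tested genes. The rest have no level here, so the part of interferon in the Ube2l6 level was not tested. Ifit2 had 20 scaled reads in GATA-1 2RA, 1.43, which is 3 reads, in GATA-1 V205M and 21.4 in GATA-1 WT, and no table gives its level in the control.

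Trim10 encodes a RING finger protein of erythroid cells, a kind of ubiquitin ligase, and lies at chr17:36869574-36877833 on the plus strand. It had 2.14 scaled reads in GATA-1 2RA, resting on 3 reads, 12.6 in GATA-1 V205M (11.2 and 14), 93.8 in GATA-1 WT and 27.3 in G1E control (26.6 and 28). GATA-1 WT was highest, and both mutants were below the control as well as below GATA-1 WT. GATA-1 WT was 3.44-fold (2.46 to 5.06) above G1E control, which fell under 2-fold when the medians of the groups were made equal. GATA-1 2RA was 12.7-fold (4 to 63.3) below G1E control and 43.8-fold (14.7 to 215) below GATA-1 WT, both resting on those 3 reads. GATA-1 V205M was 7.45-fold (4.96 to 11.8) below GATA-1 WT, and its 2.16-fold (1.29 to 3.64) deficit against G1E control was not listed. The difference between the mutants (5.88-fold, 1.79 to 30) was not listed either. Of 16 genes of ubiquitin and ISG15 conjugation, 5 were listed in any table, beside 2982 of 12931 tested genes. They were Ube2l6, Trim10, Uba7, Usp18 and Fbxo7. Fbxo7, a substrate receptor of a ubiquitin ligase, had 72.4 scaled reads in GATA-1 V205M and 147 in GATA-1 WT. Trim27, a relative from the same protein family, was listed once, with 67.2 scaled reads in GATA-1 2RA and 152 in G1E control.

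Hemgn encodes hemogen, a nuclear protein made in blood-forming cells and known as a GATA-1 target, and lies at chr4:46393989-46413506 on the minus strand. Its level was 75 scaled reads in GATA-1 2RA, 29.8 in GATA-1 V205M (33.5 and 26), 744 in GATA-1 WT and 119 in G1E control (110 and 129). Both mutants were below the control, and GATA-1 WT was above every other group. GATA-1 WT was 6.25-fold (5.56 to 7.69) above G1E control. GATA-1 V205M was 4-fold (2.84 to 5.13) below G1E control and 25-fold (19.3 to 32.3) below GATA-1 WT, the widest gap of GATA-1 V205M from GATA-1 WT among the members. GATA-1 2RA was 9.92-fold (8.12 to 12.2) below GATA-1 WT, and its 1.59-fold (1.19 to 1.96) deficit against G1E control was not listed. The mutants differed by 2.52-fold (1.81 to 3.45), with GATA-1 2RA the higher. Hemgn and Trim10 are the 2 members that were listed as higher in GATA-1 WT and lower in a mutant when each was set against G1E control.

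Acp5 encodes tartrate-resistant acid phosphatase, best known from osteoclasts, and lies at chr9:22126727-22135711 on the minus strand. It stood at 154 scaled reads in GATA-1 2RA, 343 in GATA-1 V205M (345 and 341), 700 in GATA-1 WT and 56.5 in G1E control (51.4 and 61.6). Every form exceeded the control, and GATA-1 V205M lay above GATA-1 2RA, the reverse of Ube2l6, Fam46c and Bcl2l1. The fold over G1E control was 2.72 (2.2 to 3.73) in GATA-1 2RA, 6.07 (5.07 to 8.11) in GATA-1 V205M and 12.4 (10.4 to 16.5) in GATA-1 WT. GATA-1 2RA was 4.56-fold (3.93 to 5.3) and GATA-1 V205M 2.04-fold (1.86 to 2.24) below GATA-1 WT, and GATA-1 2RA was 2.23-fold (1.91 to 2.61) below GATA-1 V205M. All 3 differences were listed, and that of GATA-1 V205M from GATA-1 WT fell under 2-fold when either the medians or the totals of the groups were made equal. Of 20 osteoclast and macrophage markers, 1 was listed in any table, beside 2982 of 12931 tested genes. It was the integrin Itgb3, at 87.2 scaled reads in GATA-1 2RA, 12.2 in GATA-1 V205M and 7.62 in G1E control. Itgb3 is also a platelet integrin. The other 19 markers had no level in these tables, and the part of such cells in the Acp5 level was not tested. The gene 6530413G14Rik overlaps Acp5 on the opposite strand, and no source used here says whether counting used strand, so reads of the pair cannot be told apart.

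Hebp1 encodes a small cytosolic protein that binds heme and porphyrins and lies at chr6:135137522-135198022 on the minus strand. It had 220 scaled reads in GATA-1 2RA, 163 in GATA-1 V205M (178 and 148), 702 in GATA-1 WT and 33.9 in G1E control (34.3 and 33.6). The mutants sat between GATA-1 WT and the control. The fold over G1E control was 6.49 (4.8 to 8.83) in GATA-1 2RA, 4.81 (3.59 to 6.57) in GATA-1 V205M and 20.7 (15.6 to 27.7) in GATA-1 WT. GATA-1 2RA was 3.19-fold (2.81 to 3.63) and GATA-1 V205M 4.3-fold (3.79 to 4.83) below GATA-1 WT. The mutants themselves differed by 1.35-fold (1.15 to 1.57), which was not listed. Hebp1 shares its span with Fam234b and the antisense gene Gm19434 on the other strand, with the same limit as for Acp5.

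Tspo2 encodes an erythroid relative of the translocator protein Tspo that binds cholesterol, and lies at chr17:48447907-48451522 on the minus strand. It was highest in G1E control and low in both mutants, at 20 scaled reads in GATA-1 2RA, 11.1 in GATA-1 V205M (11.2 and 11) and 115 in G1E control (133 and 97.9). No table with GATA-1 WT lists it, so its level with the wild-type form is not known here. GATA-1 2RA was 5.77-fold (4.17 to 9.62) and GATA-1 V205M 10.4-fold (7.32 to 18) below G1E control, and the 1.8-fold (1.01 to 3.25) difference between the mutants was not listed. It was the only member listed as lower in both mutants against the control. Tspo itself was listed as lower in GATA-1 V205M, with 12.1 scaled reads against 53.4 in G1E control, a 4.41-fold (2.58 to 6.52) difference.

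Fam46c, named Tent5c in current annotation, encodes a poly(A) polymerase that lengthens the tails of messenger RNAs; it lies at chr3:100451628-100489324 on the minus strand. It had 549 scaled reads in GATA-1 2RA, 75.2 in GATA-1 V205M (65.3 and 85.1), 620 in GATA-1 WT and 101 in G1E control (90.8 and 112). GATA-1 2RA and GATA-1 WT were high and close together, and GATA-1 V205M was the lowest group. The fold over G1E control was 5.42 (4.8 to 6.9) in GATA-1 2RA and 6.11 (5.43 to 7.76) in GATA-1 WT. GATA-1 V205M, at 0.742-fold (0.618 to 0.98) of G1E control, was not listed. GATA-1 2RA stood at 0.886-fold (0.806 to 0.975) of GATA-1 WT, a log2 change of -0.17 that was not listed and turned to 0.24 when the totals of recovered reads were made equal. GATA-1 V205M was 8.24-fold (7.04 to 9.89) below GATA-1 WT, and GATA-1 2RA was 7.3-fold (6.22 to 8.8) above GATA-1 V205M, the largest increase between the mutants among the members.

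Bcl2l1 encodes Bcl-xL, the anti-apoptotic protein on which late erythroblasts are known to depend, and lies at chr2:152780668-152831728 on the minus strand. It had 438 scaled reads in GATA-1 2RA, 121 in GATA-1 V205M (118 and 124), 411 in GATA-1 WT and 97.1 in G1E control (93.4 and 101). The groups fell into a high pair, GATA-1 2RA and GATA-1 WT, and a low pair, GATA-1 V205M and G1E control. GATA-1 2RA was 4.51-fold (3.84 to 5.56) and GATA-1 WT 4.24-fold (3.61 to 5.21) above G1E control. GATA-1 2RA over GATA-1 WT was 1.06-fold (0.952 to 1.19), an interval that includes no difference and covers counting error only. Its log2 change of 0.09 became 0.51, outside that interval, when the totals of recovered reads were made equal. GATA-1 V205M over G1E control was 1.25-fold (1.03 to 1.57) and not listed. GATA-1 V205M was 3.4-fold (2.95 to 3.95) below GATA-1 WT, and GATA-1 2RA was 3.62-fold (3.13 to 4.21) above GATA-1 V205M.

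Of 26 genes of the Bcl2 family, 8 were listed in any table, beside 2982 of 12931 tested genes. Bcl2, the founding survival protein, stood at 75.7 scaled reads in GATA-1 2RA, 5.22 in GATA-1 V205M, 8.82 in GATA-1 WT and 3.65 in G1E control. Those last levels rest on 11 reads in GATA-1 V205M, 14 in GATA-1 WT and 4 in G1E control. Bcl2 was thus near the floor outside GATA-1 2RA. It was high in GATA-1 2RA only, 20.7-fold (10.9 to 108) above G1E control, 8.59-fold (4.9 to 16.2) above GATA-1 WT and 14.5-fold (7.99 to 30.7) above GATA-1 V205M, each listed. GATA-1 2RA cells thus had high RNA for both Bcl2 and Bcl2l1, GATA-1 WT cells for Bcl2l1 alone, and GATA-1 V205M cells for neither. Bid, which relays death signals to mitochondria, had 299 scaled reads in GATA-1 2RA, 284 in GATA-1 V205M, 122 in GATA-1 WT and 329 in G1E control, and was listed as lower in GATA-1 WT than in each of the other groups. Bax, which permeabilizes the outer mitochondrial membrane in apoptosis, went the other way, with 233 scaled reads in GATA-1 2RA, 469 in GATA-1 WT and 208 in G1E control. It was listed as 2.25-fold (1.98 to 2.59) higher in GATA-1 WT, against G1E control, and as 2.01-fold (1.76 to 2.3) lower in GATA-1 2RA than in GATA-1 WT. Bcl2l11, the pro-apoptotic protein Bim, was listed between the mutants, with 109 scaled reads in GATA-1 2RA against 47 in GATA-1 V205M.

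Of 3 mitophagy receptors in that family, Bnip3l and Bnip3 were highest in GATA-1 WT and Bcl2l13 was not. Bnip3l, which clears mitochondria from maturing red cells, had 231 scaled reads in GATA-1 2RA, 298 in GATA-1 V205M, 1128 in GATA-1 WT and 359 in G1E control. Bnip3 had 30.7 in GATA-1 2RA, 111 in GATA-1 V205M, 760 in GATA-1 WT and 35.7 in G1E control. Both were listed as lower in either mutant than in GATA-1 WT, so their levels, unlike that of Bcl2l1, were not near the GATA-1 WT level in GATA-1 2RA. Bcl2l13 had 332 scaled reads in GATA-1 2RA, 856 in GATA-1 V205M, 764 in GATA-1 WT and 269 in G1E control. It was listed as 3.19-fold (2.69 to 3.33) higher in GATA-1 V205M and 2.84-fold (2.4 to 2.99) higher in GATA-1 WT, each over G1E control, and GATA-1 V205M was not listed against GATA-1 WT.

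**Figure D3:**
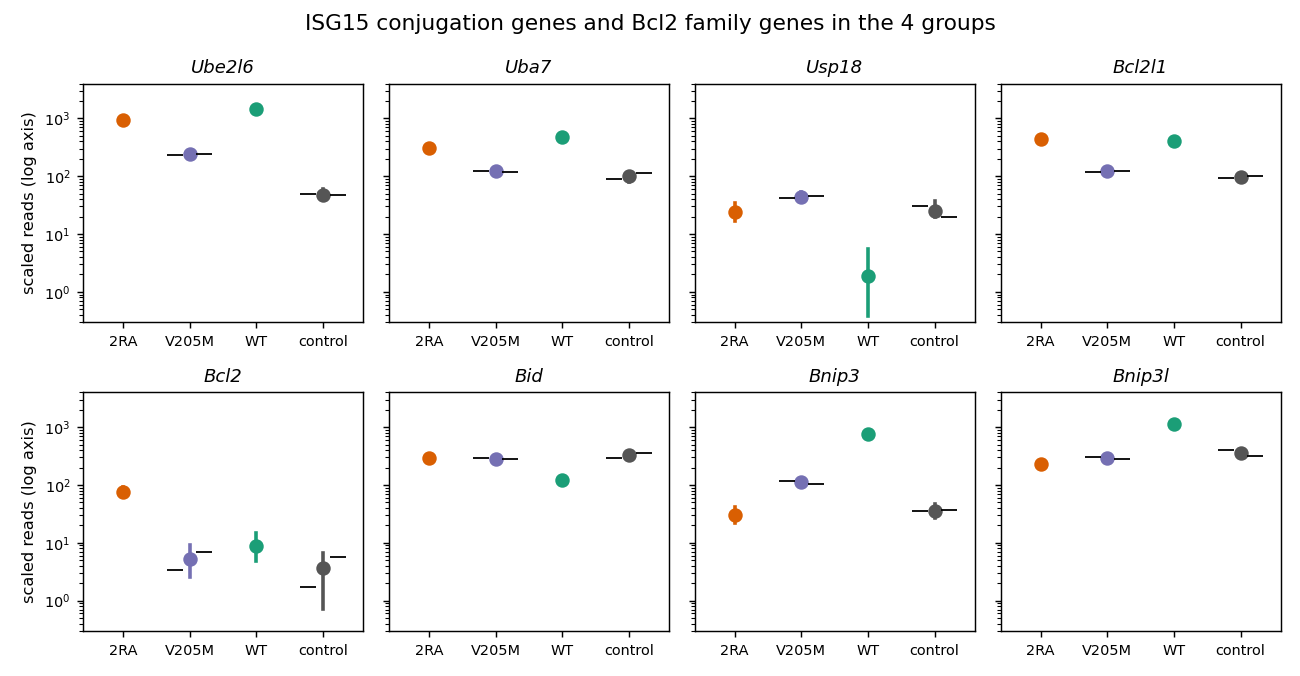
Levels of 3 ISG15 conjugation genes and 5 Bcl2 family genes in GATA-1 2RA, GATA-1 V205M, GATA-1 WT and G1E control, in scaled reads on a log axis, with 95% counting intervals as vertical bars and the 2 count columns as short lines. Ube2l6 and Uba7 share 1 order of groups, Usp18 is lowest in GATA-1 WT, and Bcl2 is high in GATA-1 2RA only, at 75.7 scaled reads.

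Car1 encodes carbonic anhydrase 1, a cytosolic enzyme abundant in red cells, and lies at chr3:14766216-14808368 on the minus strand, with the processed pseudogene Gm16399 inside its span. It had 56.4 scaled reads in GATA-1 2RA, 1264 in GATA-1 V205M (1305 and 1224), 1097 in GATA-1 WT and 1562 in G1E control (1546 and 1578). GATA-1 2RA stood apart from the other 3 groups, which were not listed against one another. Their folds were 0.702 (0.663 to 0.751) for GATA-1 WT over G1E control, 0.809 (0.772 to 0.862) for GATA-1 V205M over G1E control and 1.15 (1.09 to 1.23) for GATA-1 V205M over GATA-1 WT. The first of these depended on the scaling, since its log2 change of -0.51 became -1.56 when group medians were made equal and -1.20 when totals were made equal. GATA-1 2RA was 27.7-fold (22 to 34.9) below G1E control, 19.4-fold (15.5 to 24.7) below GATA-1 WT and 22.4-fold (18 to 28.5) below GATA-1 V205M, all listed. Of the 8 members with a level in every group, Car1 was the only one highest in G1E control. Of 16 carbonic anhydrase genes, Car2 and Car13 were the others listed in any table, beside 2982 of 12931 tested genes. Car2 had 4571 scaled reads in GATA-1 V205M, 11070 in GATA-1 WT and 15117 in G1E control, and was listed as lower in GATA-1 V205M than in either. Car13 had 18.7 scaled reads in GATA-1 V205M and 82.7 in G1E control. Neither was listed in a table with GATA-1 2RA, so their levels in that group are not known here.

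The members' patterns over the 4 groups were compared by the distance between their log2 levels, each centred on its own mean. Among the 8 members with a level in every group, Fam46c and Bcl2l1 were closest at 0.95, followed by Hebp1 and Acp5 at 1.23 and Ube2l6 and Hebp1 at 1.30. Ube2l6 and Car1 were farthest apart at 6.72. The same distance was taken to the 1157 genes with a level in all 4 groups, as a description with no test. Nearest to Bcl2l1 were Mob3c (0.19) and Ubash3b (0.26), and nearest to Fam46c were I830077J02Rik (0.21), Snx9 (0.72) and Il9r (0.72). Mob3c had 55.7 scaled reads in GATA-1 2RA, 16.2 in GATA-1 V205M, 57.9 in GATA-1 WT and 14.3 in G1E control, the same high and low pairs as Bcl2l1. Nearest to Acp5 were Ptdss2 (0.30), Cecr2 (0.36) and Egfl7 (0.66), and nearest to Hebp1 were Necap2 (0.39), 6030468B19Rik (0.45) and Ypel3 (0.55).

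Hemgn was closest to Epb4.9 (0.85), which encodes a protein of the red cell membrane skeleton, and to Lzts1 (0.95). Epb4.9 had 19.3 scaled reads in GATA-1 2RA, 4.01 in GATA-1 V205M, 152 in GATA-1 WT and 13.4 in G1E control. Ube2l6 was nearest to Esr1 (0.46), the estrogen receptor gene, to Plekho2 (0.65) and to Fermt3 (0.78). Esr1 had 43.6 scaled reads in GATA-1 2RA, 13.3 in GATA-1 V205M, 58.6 in GATA-1 WT and 1.83 in G1E control, and no source used here says whether these reads came from an introduced sequence. Car1 was nearest to Foxh1 (0.67), Ces2g (0.72) and Gimap9 (0.76), and Trim10 had no neighbour closer than 1.18 (Pdk1), followed by Vangl1 (1.19) and Mast4 (1.22).

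Other genes of late red cell maturation were taken from a list of 43, of which 28 were listed in any table, beside 2982 of 12931 tested genes. Over G1E control, GATA-1 WT had 19 listed as higher and 1 as lower, GATA-1 2RA 7 and 3, and GATA-1 V205M 5 and 6. The shares of all tested genes listed as higher and as lower were 8.17% and 4.86% for GATA-1 WT, 4.86% and 2.61% for GATA-1 2RA, and 4.83% and 3.32% for GATA-1 V205M. Over GATA-1 WT, GATA-1 2RA had 1 higher and 16 lower with a median log2 change of -2.28, and GATA-1 V205M had 1 higher and 24 lower with a median of -1.92. Each median covers the genes listed in that pair only, so the sets differ between the mutants. Over all listed genes those medians were -1.07 and -1.16, and the shares of all tested genes were 3.33% higher and 4.04% lower for GATA-1 2RA and 3.7% higher and 5.65% lower for GATA-1 V205M. The exception in both was Cited2, a transcriptional coregulator, with 109 scaled reads in GATA-1 2RA, 89.9 in GATA-1 V205M, 32.1 in GATA-1 WT and 273 in G1E control. GATA-1 2RA over GATA-1 V205M gave 7 higher and 2 lower, beside 3.6% and 2.62% of all tested genes, with a median of 1.17 beside 1.18 over all listed genes.

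Pklr, Slc38a5 and Btg2 were among the most changed genes of that list. Pklr, the pyruvate kinase of red cells and liver, had 0.714 scaled reads in GATA-1 2RA, which is 1 read, 4.65 in GATA-1 V205M, 350 in GATA-1 WT and 204 in G1E control. It was below GATA-1 WT by 490-fold (87.6 to 19395) in GATA-1 2RA and by 75.3-fold (40.9 to 159) in GATA-1 V205M. The first of these folds rests on the lowest count found in any column. The amino acid transporter Slc38a5 had 0.714 scaled reads in GATA-1 2RA, again 1 read, 6.3 in GATA-1 V205M, 252 in GATA-1 WT and 2.26 in G1E control. Btg2, an antiproliferative gene, had 167, 174, 1120 and 11.3 scaled reads in GATA-1 2RA, GATA-1 V205M, GATA-1 WT and G1E control, above the control in both mutants and below GATA-1 WT.

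The split of the members between mutants was also present among the companions, here picked out after their values were seen. Pim1, a survival kinase, had 373 scaled reads in GATA-1 2RA, 49.2 in GATA-1 V205M, 556 in GATA-1 WT and 142 in G1E control. Art4, which carries the Dombrock blood group, had 414 in GATA-1 2RA, 80.3 in GATA-1 V205M, 248 in GATA-1 WT and 65.4 in G1E control. Both followed the order of Fam46c and Bcl2l1 in being listed as lower than GATA-1 WT in GATA-1 V205M and not in GATA-1 2RA. Kel, the Kell blood group protein, showed the opposite, with 23.6 scaled reads in GATA-1 2RA, 109 in GATA-1 V205M, 148 in GATA-1 WT and 45.2 in G1E control.

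**Figure D4:**
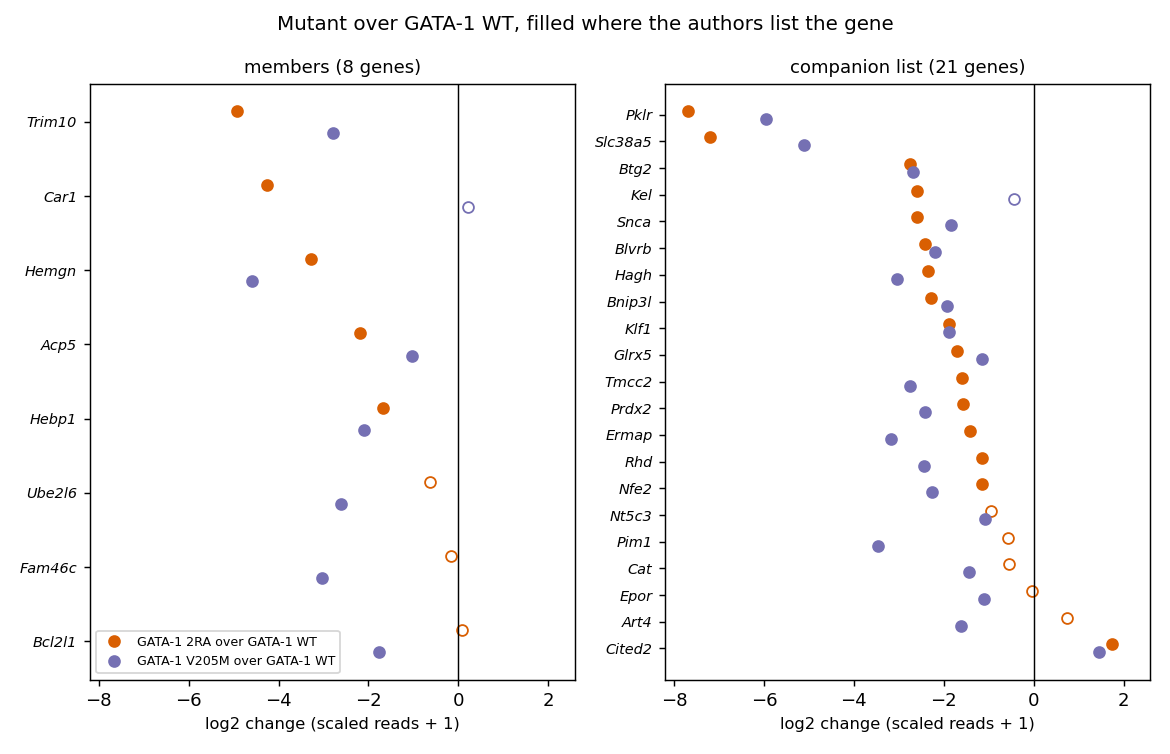
Log2 change over GATA-1 WT, in scaled reads plus 1, for GATA-1 2RA and GATA-1 V205M; the left panel shows the 8 members and the right panel 21 companion genes with a level in all 3 groups (1 more such gene is not reported here), filled where the authors list the gene. In the right panel 19 genes lie left of 0 for GATA-1 2RA (Epor, the nearest to 0, crosses it when group medians or totals are made equal) and 20 for GATA-1 V205M, and the mutants differ widely for Car1, Fam46c and Ube2l6 in the left panel.

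Markers of other lineages also differed between the groups. Of 14 mast cell markers, 7 had a level, beside 2982 of 12931 tested genes listed in any table. Their summed level was 2440 scaled reads in GATA-1 2RA, 3317 in GATA-1 V205M, 195 in GATA-1 WT and 5701 in G1E control. Kit made up most of the sum in GATA-1 2RA (2218), and the mast cell protease Cpa3 made up the largest share in G1E control (2795) with 5 scaled reads in GATA-1 2RA, 14.6 in GATA-1 V205M and 0.63 in GATA-1 WT. The sum does not follow each marker: over G1E control, GATA-1 V205M had 4 mast cell markers listed as higher (Tpsab1, Il1rl1, Hdc and Ms4a2) and 2 as lower. The shares of all tested genes in that comparison were 4.83% higher and 3.32% lower. The median log2 change of these listed markers was 1.72. Tpsab1, a tryptase, had 139 scaled reads in GATA-1 2RA, 474 in GATA-1 V205M, 0.63 in GATA-1 WT, which is 1 read, and 55.1 in G1E control. Of 15 megakaryocyte markers, 3 to 5 had a level, summing to 1665 scaled reads in GATA-1 2RA, 33.2 in GATA-1 V205M, 435 in GATA-1 WT and 346 in G1E control. The sums cover different genes. Gp1ba has no level in GATA-1 WT or GATA-1 V205M, Gp5 none in GATA-1 WT and Tubb1 none in GATA-1 2RA. Tubb1 had 0.931 scaled reads in GATA-1 V205M, 63.6 in GATA-1 WT and 1.83 in G1E control. Plek, a platelet signalling protein, gave 1319 of the 1665 in GATA-1 2RA. The mast cell genes Fcer1a and Cma1 and the megakaryocyte genes Pf4 and Itga2b had no level in these tables. The megakaryocyte sum was highest in GATA-1 2RA, where Fam46c and Bcl2l1 were near the GATA-1 WT level and Bcl2 was high, and lowest in GATA-1 V205M, where those genes were low. The sums in GATA-1 WT and G1E control were 435 and 346, of which Plek gave 368 and 237. Fam46c was 6.11-fold and Bcl2l1 4.24-fold higher in GATA-1 WT than in G1E control. The part of either lineage in the member levels was not tested.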

How the data were processed

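Per the labels, RNA from 4 samples of G1E cells, 1 in each group, was made into TruSeq libraries. The submitters' processing notes name mm10, deepTools, TopHat, Cuffdiff and Cufflinks, and no source used here says which tool made the 6 tables. The deposited signal in these tables is the authors' mean of read counts divided by a size factor. Whole counts were recovered from the deposited levels for 100.0% of values (tolerance 3e-11), with a lowest count of 1. The fold and log2 values are the authors' ratio of 2 group means, and the p-value and adjusted p-value are the authors', over 12931 tested genes. The authors entered both count columns of a group, so these p-values may treat columns as replicates; none is printed.

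Computed here were log2 changes with 1 scaled read added, folds with exact 95% intervals from pooled reads, list counts and distances between patterns (Python 3.11.15, scipy 1.17.1). edgeR 4.0.16 (R 4.3.3), with an assumed BCV of 0.2 or 0.4, served as an alternative at the authors' limits and was tested on simulated data. Whole reads per level were planned for and found. Named genes are all 9 members, Gata1, the identity markers, the 4 most changed genes of each list and the 3 genes nearest in pattern to each member among genes reaching 10 scaled reads in 1 group; further genes named where a count is broken down or a pattern shown were picked after their values were seen. A few genes that this rule selects are not reported here. The members and lists were chosen with earlier results of these data known. Coordinates are from GENCODE M21, where Fam46c was matched as Tent5c through the RefSeq gene table.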

Additional observations from a re-analysis of the deposited data

Results flagged for a closer look

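For 2 members the authors' tables list opposite directions for 2 forms of GATA-1 over G1E control. Trim10 had a log2 change of -3.17 in GATA-1 2RA and of 1.75 in GATA-1 WT, both over G1E control. Hemgn had a log2 change of -1.97 in GATA-1 V205M and of 2.63 in GATA-1 WT, both over G1E control. The difference between these changes was not tested, since each group is 1 sample and the comparisons share the control. The direct comparisons are listed for both, at -4.92 for Trim10 in GATA-1 2RA over GATA-1 WT and -4.60 for Hemgn in GATA-1 V205M over GATA-1 WT. The Trim10 level in GATA-1 2RA rests on 3 reads.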

How the results depend on the processing

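The member counts depended most on the spread assumed between cultures. With edgeR's exact test at an assumed BCV of 0.4, added after seeing the data, GATA-1 WT over G1E control kept 3 of 7 higher members, GATA-1 2RA over G1E control 1 of 5 higher and 1 of 3 lower, GATA-1 V205M over G1E control 0 of 3 higher and 0 of 2 lower, GATA-1 2RA over GATA-1 WT 2 of 5 lower, GATA-1 V205M over GATA-1 WT 1 of 7 lower, and GATA-1 2RA over GATA-1 V205M 0 of 4 higher and 1 of 2 lower. At a BCV of 0.2 the last of these counts was also 1, and the other counts were within 1.5 times of those deposited. Over all genes, the higher and lower calls at a BCV of 0.2 and of 0.4 were 609 and 381, and 60 and 46, for GATA-1 WT over G1E control, 269 and 149, and 31 and 28, for GATA-1 2RA over G1E control, and 234 and 241, and 11 and 18, for GATA-1 V205M over G1E control. Those for GATA-1 2RA over GATA-1 WT were 256 and 258, and 45 and 43, for GATA-1 V205M over GATA-1 WT 218 and 385, and 36 and 47, and for GATA-1 2RA over GATA-1 V205M 252 and 149, and 45 and 32. A 4-fold limit left 1 higher and 1 lower member between the mutants. Stricter adjusted p-values and a minimum of 50 scaled reads moved no count by over 1.5 times.

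Making the group medians equal moved log2 changes by 1.05 for GATA-1 WT over G1E control and by 0.40 or less in size for the other pairs, and making the totals equal by 0.69 and by at most 0.43 in size. These shifts come from listed genes, which the 2-fold limit selects. No listed difference of a member or of a gene list changed direction under either scaling, and 2 of 38 listed member differences (Trim10 in GATA-1 WT over G1E control, Acp5 in GATA-1 V205M over GATA-1 WT) fell under 2-fold. The unlisted Car1 difference of GATA-1 WT over G1E control passed 2-fold under both scalings, and that of Hemgn in GATA-1 2RA over G1E control did with medians made equal. Of 51 member differences, all stayed within their counting interval with no pseudocount and 46 with a pseudocount of 10, while 27 left it with medians made equal and 26 with totals made equal. With 1 count column alone, 26 of 26 stayed within the interval for each column. No paired analysis was possible because the labels give no replicate numbers and each group is 1 sample.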
